A study of Mus musculus with 12 samples.

Results

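The genes described here are 35 genes of the primary cilium: subunits of the BBSome and the chaperonins that assemble it, subunits of the intraflagellar transport (IFT) complexes and of the dynein-2 motor, and components of the transition zone. They were chosen by name, with the direction of many of their values in these samples already known (lower with Aβ42 and higher with AE1-329), and each was read from the brightest of the probe sets that carry its symbol and no other. By this rule 34 of the 35 were measured, among 19938 genes in all. Arl6, the small GTPase that recruits the BBSome to membranes, had no such probe set and has no value here. The cells were microglia, the macrophages that live in brain tissue, selected by CD11b from C57BL/6J pups at postnatal day 7 and kept in serum-containing culture for 3 days. Each group was exposed for 6 h and had 3 arrays, 1 for each of 3 litters: Aβ42 with AE1-329, Aβ42 alone, AE1-329 alone, and vehicle. Aβ42, the aggregation-prone peptide of Alzheimer's disease plaques, was given as oligomers at 10 µM, and AE1-329, which activates EP4, a receptor of prostaglandin E2, at 100 nM. The solvents were DMSO at 0.4% for Aβ42 and ethanol at 0.001% for AE1-329, and vehicle cultures received both. The cultures are neonatal cells outside the brain, and the cells of 1 litter served as 1 replicate. Because the choice of genes used the differences with Aβ42 and with AE1-329, those differences of the members are given below as a description with no test. For the members only the interaction of both compounds is tested. The choice did not use the interaction itself, but it is computed from the same arrays and so is not independent of the choice.

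The primary cilium is an antenna-like projection on a microtubule core, in which hedgehog receptors and several G protein-coupled receptors gather. IFT-B particles with kinesin-2 motors carry cargo to its tip, IFT-A particles with dynein-2 return it to the base, the BBSome couples membrane receptors to these trains, and the transition zone at the base acts as a gate. Most cells of the blood lineage are described as lacking a primary cilium, and some IFT proteins also act outside it, as IFT20 does at the Golgi. Transcripts were measured here and cilia were not.

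RFX transcription factors drive many ciliary genes through a motif called the X-box, and EP4 raises cyclic AMP, which acts on promoters through the cAMP response element. Both motifs were therefore searched in RefSeq promoters of mouse build GRCm38.p6, from 250 bases before to 50 bases after the annotated start, which were at hand for 31 of the 35 members and 27025 genes in all. The X-box was written as GTTGCC, 1 to 3 bases and GGCAAC, and its single arm as GTTGCC, so that every X-box also holds an arm. The cAMP response element was the palindrome TGACGTCA, and its short form TGACG, which the palindrome contains, and all motifs were read on both strands. The arm GTTGCC lay in 14 of the 31 member promoters (45.2%), against 14.1% of all promoters. The exact X-box lay in 1 member promoter (3.23%), that of Tctn1 from 37 to 50 bases after the start as GTTGCCCGGGCAAC, against 0.189% of all. With 1 mismatch allowed in an arm it lay in 5 member promoters (16.1%), those of Bbs1, Bbs7, Ift57, Tctn1 and Tctn3, against 1.34% of all. The palindrome TGACGTCA lay in 2 member promoters (6.45%), those of Ift57 and Mkks, against 2.03% of all, and TGACG lay in 12 (38.7%), against 23% of all. A match describes letters in this window and shows no binding.

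Promoters are shown for 5 members: Wdr19 and Tctn3, which had the largest differences with Aβ42 alone below zero, Bbs1, whose X-box with 1 mismatch spans bases 2 to 15 after the start, and Ift57 and Mkks, which hold the palindrome. They lie at chr5:65199446-65199745 on the plus strand (Wdr19), chr19:40612182-40612481 on the minus strand (Tctn3), chr19:4906578-4906877 on the minus strand (Bbs1), chr16:49699044-49699343 on the plus strand (Ift57) and chr2:136891357-136891656 on the minus strand (Mkks). Each runs 5′ to 3′ on the strand of its gene, and capitals mark each match to GTTGCC, to the X-box with up to 1 mismatch, to TGACGTCA or to TGACG.
Wdr19: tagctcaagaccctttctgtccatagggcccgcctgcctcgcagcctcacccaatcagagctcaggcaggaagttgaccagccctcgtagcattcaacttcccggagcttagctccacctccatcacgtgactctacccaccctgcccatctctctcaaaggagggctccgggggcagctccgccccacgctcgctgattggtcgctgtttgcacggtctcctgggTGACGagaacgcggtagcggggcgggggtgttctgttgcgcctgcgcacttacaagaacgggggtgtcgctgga
Tctn3: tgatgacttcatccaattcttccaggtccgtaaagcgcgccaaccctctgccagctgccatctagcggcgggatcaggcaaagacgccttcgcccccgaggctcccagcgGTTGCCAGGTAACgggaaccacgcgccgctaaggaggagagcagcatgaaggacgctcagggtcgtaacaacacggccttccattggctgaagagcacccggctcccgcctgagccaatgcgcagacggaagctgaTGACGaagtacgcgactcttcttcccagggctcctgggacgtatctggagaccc
Bbs1: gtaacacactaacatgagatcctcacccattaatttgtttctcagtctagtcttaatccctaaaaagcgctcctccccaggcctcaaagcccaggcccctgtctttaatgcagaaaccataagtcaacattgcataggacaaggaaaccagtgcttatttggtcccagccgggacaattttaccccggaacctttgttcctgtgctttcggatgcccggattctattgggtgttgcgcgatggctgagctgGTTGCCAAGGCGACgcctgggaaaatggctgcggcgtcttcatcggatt
Ift57: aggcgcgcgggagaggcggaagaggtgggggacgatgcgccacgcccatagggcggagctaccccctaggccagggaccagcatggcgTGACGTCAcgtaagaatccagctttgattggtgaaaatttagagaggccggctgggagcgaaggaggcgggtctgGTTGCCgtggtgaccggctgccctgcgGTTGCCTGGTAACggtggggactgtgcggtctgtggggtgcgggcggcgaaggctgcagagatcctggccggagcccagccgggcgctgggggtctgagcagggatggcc
Mkks: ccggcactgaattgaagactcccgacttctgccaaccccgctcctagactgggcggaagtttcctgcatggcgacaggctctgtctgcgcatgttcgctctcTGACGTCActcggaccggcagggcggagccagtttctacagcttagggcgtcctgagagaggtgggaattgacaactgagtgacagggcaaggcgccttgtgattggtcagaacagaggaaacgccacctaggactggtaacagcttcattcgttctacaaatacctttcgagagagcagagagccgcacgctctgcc

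Array medians lay between 6.97 and 7.05 log2 units, and 1 log2 unit is a 2-fold difference. The median standard deviation (SD) between the 3 arrays of a group was 0.115 over the members in vehicle and 0.062 to 0.069 in the other groups. Vehicle replicate 1 stood at least 0.5 log2 units above both other vehicle arrays for 2 members, Ift57 and Ift74. The 9 measured microglia markers, among them Csf1r, Cx3cr1 and Trem2, all lay above the median gene level of 7.41, with means of 8.17 to 12.65. Markers of other brain cells were lower in general, with exceptions such as the mural gene Acta2 at 11.33, and since no background signal was used a low value does not show absence. Summed over 8 astrocyte markers, the array values were 58.0 to 59.0 with Aβ42 alone and 56.8 to 58.8 in vehicle, over 8 fibroblast and mural markers 60.1 to 62.5 and 58.9 to 62.5, over 6 oligodendrocyte lineage markers 44.5 to 44.9 and 44.6 to 45.7, over 6 neuron markers 39.7 to 41.2 and 40.4 to 41.5, and over 5 ependymal markers 32.3 to 32.6 and 31.5 to 32.5. Those of 5 endothelial markers were 34.9 to 35.3 with Aβ42 alone, 36.6 to 37.3 with AE1-329 alone and 35.5 to 35.9 in vehicle, and those of the 9 microglia markers 93.1 to 93.9, 93.4 to 94.0 and 95.0 to 95.3. With both compounds the sums were 35.4 to 35.7 and 91.7 to 92.3. Sums hide single markers: microglia markers changed by -1.43 to 0.46 with Aβ42 alone, and endothelial markers by -0.44 to 1.22 with AE1-329 alone. Of the 9 microglia markers 4 were called lower and 2 higher with Aβ42 alone, where 14.8% and 10.7% of all genes were. The part of these markers in the differences below was not tested, and in a bulk culture fewer cells of a type and less RNA per cell cannot be told apart.

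The members as a group stood low with Aβ42 alone, high with AE1-329 alone and near vehicle with both. Taken as the difference from the vehicle mean, the median member stood at -0.06, -0.06 and -0.07 on the 3 arrays of Aβ42 with AE1-329, at -0.37, -0.26 and -0.31 with Aβ42 alone, at 0.14, 0.20 and 0.25 with AE1-329 alone, and at -0.04, -0.02 and 0.06 in vehicle. The arrays of the 2 single treatments thus lay on opposite sides of all vehicle arrays. Between Aβ42 alone and vehicle the median difference of the 34 members was -0.29, against 0.02 over all genes, and 30 members were below zero. Of the 34, 21 passed limma's threshold of an adjusted p of 0.05 as lower, where 14.8% of all genes did, and 1 passed as higher, where 10.7% did. The arrays did not overlap for 25 members that were lower, against 18.6% of all genes, and 26 members were lower in all 3 litters, against 24.2% of all genes. Between AE1-329 alone and vehicle the median difference was 0.17, against -0.01 over all genes, 29 members were above zero, and the 13 that passed were all higher, where 4.71% of all genes passed as higher and 5.45% as lower. The arrays did not overlap for 20 members that were higher, against 10.4% of all genes. Since these differences chose the members, nothing is read from these counts.

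**Figure D1:**
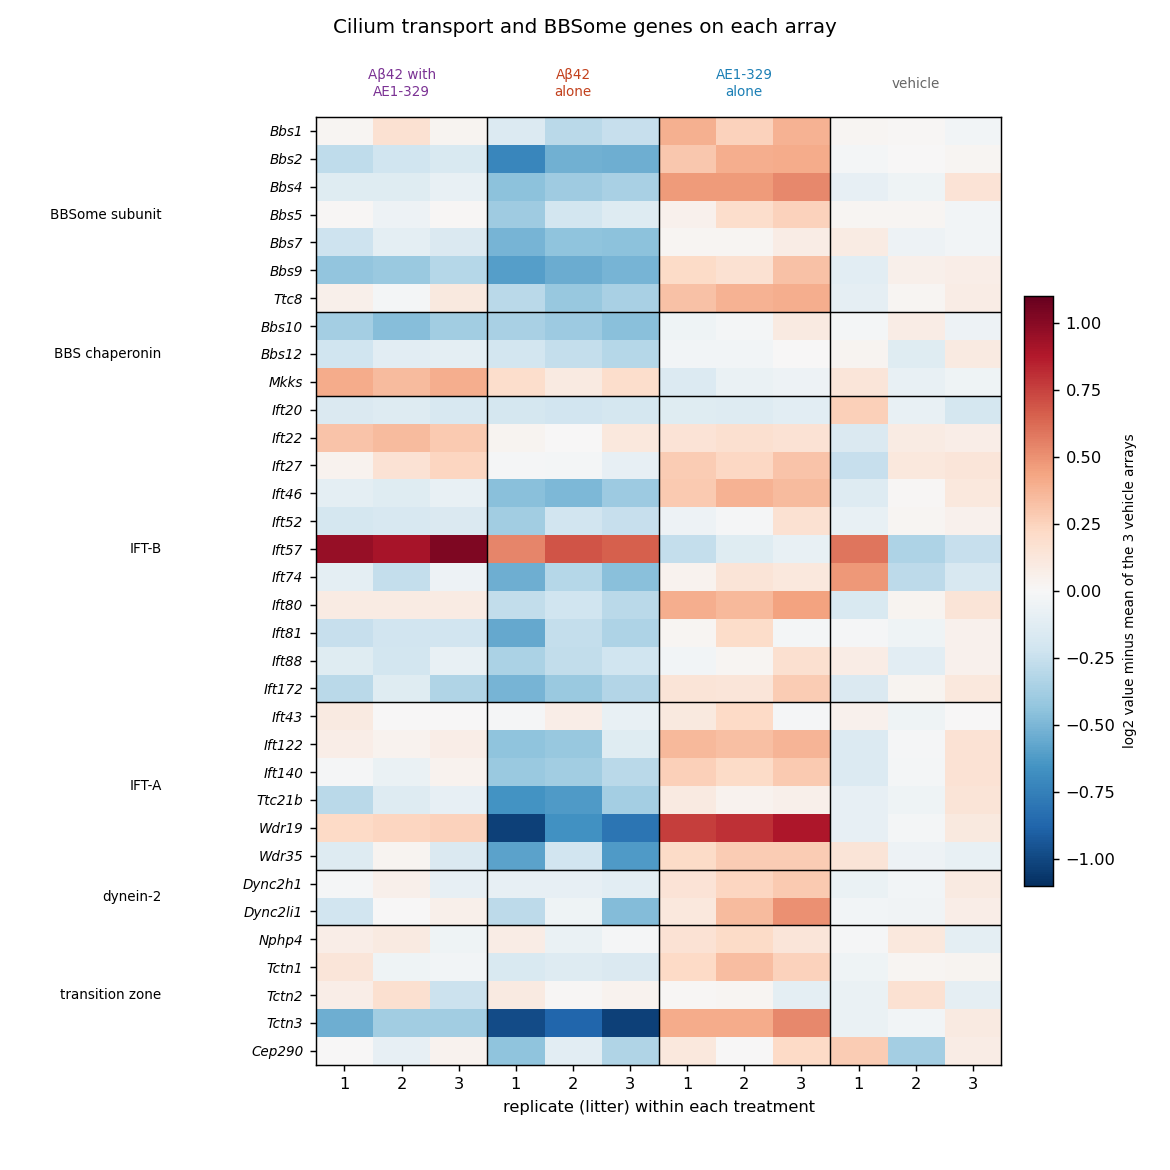
Heat map of the 34 measured members (rows, grouped by role) on the 12 arrays (columns, replicates 1 to 3 of each treatment), coloured by the log2 value minus the mean of the 3 vehicle arrays. Blue prevails with Aβ42 alone, where the median member stands at -0.37 to -0.26, and red with AE1-329 alone, where it stands at 0.14 to 0.25, while Ift57 and Mkks are red on the 6 arrays with Aβ42.

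The BBSome subunits come first. All 7 measured subunits were lower with Aβ42 alone than in vehicle on non-overlapping arrays, by -0.60 to -0.24 with a median of -0.40. Of all genes 18.6% were lower without overlap. Since the members were chosen on these differences, the count is a description. Bbs2, a subunit of the core on which the complex is built, measured 7.82, 7.88 and 7.92 log2 units with Aβ42 and AE1-329, 7.38, 7.56 and 7.56 with Aβ42 alone, 8.40, 8.50 and 8.51 with AE1-329 alone, and 8.08, 8.10 and 8.12 in vehicle. Its 4 groups did not overlap, with AE1-329 alone at the top and Aβ42 alone at the bottom. The difference with Aβ42 was -0.60 ± 0.06 (SE) against vehicle and again -0.60 ± 0.06 against AE1-329 alone, and AE1-329 made a difference of 0.37 ± 0.06 both with and without Aβ42.

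Bbs4, a subunit made of tetratricopeptide repeats, measured 7.47, 7.48 and 7.52 with both compounds, 7.15, 7.21 and 7.25 with Aβ42 alone, 8.07, 8.07 and 8.13 with AE1-329 alone, and 7.51, 7.55 and 7.75 in vehicle. AE1-329 alone stood above vehicle by 0.49 ± 0.06, the highest value among the BBSome subunits, and Aβ42 in the presence of AE1-329 stood below AE1-329 alone by -0.60 ± 0.06. Ttc8, the subunit also called BBS8, measured 8.21, 8.14 and 8.27 with both, 7.85, 7.74 and 7.80 with Aβ42 alone, 8.48, 8.54 and 8.56 with AE1-329 alone, and 8.06, 8.18 and 8.23 in vehicle. With both compounds Ttc8 therefore overlapped vehicle, a difference of 0.05 ± 0.06, while each single treatment lay apart from it. Bbs1, the subunit that ARL6 contacts, had the same order. It measured 7.90, 8.04 and 7.90 with both, 7.72, 7.58 and 7.62 with Aβ42 alone, 8.27, 8.13 and 8.26 with AE1-329 alone, and 7.90, 7.89 and 7.84 in vehicle.

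Bbs9 and Bbs7 form the core with Bbs2. Bbs9 measured 9.03, 9.05 and 9.16 with both compounds, 8.86, 8.92 and 8.96 with Aβ42 alone, 9.67, 9.64 and 9.78 with AE1-329 alone, and 9.34, 9.52 and 9.53 in vehicle. Like Bbs2, it stayed below vehicle with both compounds, here by -0.38 ± 0.07. Bbs7 measured 8.13, 8.26 and 8.20 with both, 7.85, 7.92 and 7.91 with Aβ42 alone, 8.38, 8.38 and 8.44 with AE1-329 alone, and 8.45, 8.30 and 8.33 in vehicle. AE1-329 alone overlapped vehicle for Bbs7 (0.04 ± 0.06), yet with Aβ42 present AE1-329 made a difference of 0.30 ± 0.06. Bbs5, a subunit that binds phosphoinositides, differed by -0.24 ± 0.07 with Aβ42 alone and by 0.16 ± 0.07 with AE1-329 alone.

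The chaperonin-like members, which help to fold and join the BBSome core, did not move together. Mkks measured 8.17, 8.12 and 8.16 with both compounds, 7.95, 7.86 and 7.96 with Aβ42 alone, 7.62, 7.69 and 7.71 with AE1-329 alone, and 7.89, 7.69 and 7.71 in vehicle. Its arrays with both compounds lay above all others, and those with Aβ42 alone overlapped vehicle through vehicle replicate 1. The difference with Aβ42 was 0.48 ± 0.06 in the presence of AE1-329 and 0.16 ± 0.06 without it. Bbs10 measured 7.33, 7.23 and 7.31 with both, 7.33, 7.30 and 7.23 with Aβ42 alone, 7.65, 7.68 and 7.80 with AE1-329 alone, and 7.68, 7.77 and 7.64 in vehicle. Bbs10 differed with Aβ42 by -0.41 ± 0.06 without AE1-329 and by -0.42 ± 0.06 with it, and the difference with AE1-329 was 0.01 ± 0.06 alone and 0.00 ± 0.06 with Aβ42. Bbs12, with a mean of 5.70 the dimmest member, differed by -0.26 ± 0.06 with Aβ42 alone and by -0.02 ± 0.06 with AE1-329 alone.

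Of the 11 IFT-B subunits, 6 passed as lower and 1 as higher with Aβ42 alone, with a median difference of -0.28. Of all genes 14.8% passed as lower and 10.7% as higher. Ift46 measured 10.04, 10.01 and 10.06 with both compounds, 9.69, 9.66 and 9.74 with Aβ42 alone, 10.43, 10.53 and 10.50 with AE1-329 alone, and 10.01, 10.16 and 10.27 in vehicle. Aβ42 alone lay below and AE1-329 alone above every other array. The difference with Aβ42 was -0.45 ± 0.06 both without and with AE1-329, and that with AE1-329 was 0.34 ± 0.06 both without and with Aβ42. Ift80, whose loss in humans causes a skeletal ciliopathy, measured 7.29 on each of the 3 arrays with both compounds, 6.94, 6.98 and 6.90 with Aβ42 alone, 7.60, 7.57 and 7.64 with AE1-329 alone, and 7.03, 7.24 and 7.34 in vehicle. Ift80 thus stood within the vehicle range with both compounds and outside it with either one. Ift172, which lies at the periphery of the complex, differed by -0.41 ± 0.08 with Aβ42 alone and by 0.18 ± 0.08 with AE1-329 alone. Ift81, which with IFT74 binds tubulin cargo, differed by -0.39 ± 0.08 and 0.07 ± 0.08 in the same comparisons. Ift52 and Ift88, subunits of the IFT-B core, both differed by -0.28 ± 0.07 with Aβ42 alone, and by 0.04 ± 0.07 and 0.06 ± 0.07 with AE1-329 alone.

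Ift57, a peripheral IFT-B subunit, was the member with the highest difference above zero with Aβ42. It measured 8.87, 8.82 and 8.94 with both compounds, 8.45, 8.60 and 8.56 with Aβ42 alone, 7.65, 7.78 and 7.83 with AE1-329 alone, and 8.50, 7.57 and 7.65 in vehicle. All 6 arrays with Aβ42 lay above all 3 of AE1-329 alone, a difference of 1.12 ± 0.18 between both compounds and AE1-329 alone. Against vehicle the difference with Aβ42 alone was 0.63 ± 0.18, and it was 0.93 without vehicle replicate 1, whose value of 8.50 overlapped Aβ42 alone. The call of Ift57 as higher with Aβ42 alone was lost without replicate 2 or 3 of Aβ42 alone (0.60 and 0.62) or without vehicle replicate 2 or 3 (0.46 and 0.50). Ift74, the partner of IFT81, also stood high on vehicle replicate 1. It measured 6.29, 6.15 and 6.35 with both compounds, 5.87, 6.10 and 5.94 with Aβ42 alone, 6.45, 6.55 and 6.53 with AE1-329 alone, and 6.89, 6.12 and 6.22 in vehicle. Its difference between AE1-329 alone and vehicle was 0.10 ± 0.15 with all arrays and 0.34 without vehicle replicate 1.

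The small GTPase subunits and Ift20 differed from the rest of IFT-B. Ift22 measured 10.47, 10.52 and 10.45 with both compounds, 10.19, 10.16 and 10.28 with Aβ42 alone, 10.31, 10.35 and 10.33 with AE1-329 alone, and 10.01, 10.25 and 10.23 in vehicle. With both compounds it lay above all other arrays, by 0.32 ± 0.07 over vehicle, while Aβ42 alone overlapped vehicle (0.05 ± 0.07). Ift27, which acts in the exit of the BBSome from cilia, differed by -0.04 ± 0.09 with Aβ42 alone and by 0.28 ± 0.09 with AE1-329 alone, and vehicle replicate 1 was the lowest of its 12 arrays at 7.35. Ift20 lay between 11.44 and 11.52 on all arrays but vehicle replicates 1 and 2, at 11.91 and 11.57, and differed by -0.20 ± 0.09 with Aβ42 alone.

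The IFT-A subunits held the member with the largest differences with AE1-329, Wdr19, which encodes IFT144 of the IFT-A core. Wdr19 measured 8.67, 8.68 and 8.70 with both compounds, 7.41, 7.78 and 7.64 with Aβ42 alone, 9.21, 9.24 and 9.34 with AE1-329 alone, and 8.36, 8.43 and 8.55 in vehicle. The 4 groups did not overlap, and both compounds together left Wdr19 0.24 ± 0.08 above vehicle. Aβ42 alone stood -0.83 ± 0.08 below vehicle, and AE1-329 made a difference of 0.82 ± 0.08 without Aβ42 and of 1.07 ± 0.08 with it. Of all 6 measured IFT-A subunits, 5 passed as lower with Aβ42 alone (median -0.42) and 3 as higher with AE1-329 alone (median 0.25). Of all genes 14.8% and 4.71% did.

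The other core subunits, Ift122 and Ift140, were likewise highest with AE1-329 alone and lowest with Aβ42 alone by their means, and with both compounds they lay within the vehicle range. Ift122 measured 7.72, 7.69 and 7.72 with both compounds, 7.22, 7.24 and 7.52 with Aβ42 alone, 8.01, 7.98 and 8.02 with AE1-329 alone, and 7.50, 7.64 and 7.81 in vehicle. Ift140 measured 8.28, 8.23 and 8.34 with both, 7.88, 7.92 and 7.99 with Aβ42 alone, 8.56, 8.50 and 8.59 with AE1-329 alone, and 8.15, 8.27 and 8.46 in vehicle. AE1-329 alone stood above every vehicle array for both genes, by 0.35 ± 0.09 for Ift122 and 0.25 ± 0.07 for Ift140, and Aβ42 alone reached into the vehicle range on 1 array of Ift122. The call of Ift140 for AE1-329 alone was lost in 11 of the 12 fits that left out 1 array, at values of 0.18 to 0.28.

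The peripheral IFT-A subunits Ttc21b and Wdr35 were low with Aβ42 alone. With AE1-329 alone Ttc21b overlapped vehicle, while Wdr35 lay above every vehicle array, though without a call. Ttc21b, which encodes IFT139, measured 7.77, 7.93 and 7.98 with both compounds, 7.41, 7.45 and 7.70 with Aβ42 alone, 8.17, 8.11 and 8.13 with AE1-329 alone, and 7.98, 8.02 and 8.21 in vehicle. AE1-329 made a difference of 0.37 ± 0.09 in Ttc21b with Aβ42 present and of 0.07 ± 0.09 without it. Wdr35, which encodes IFT121, differed by -0.47 ± 0.10 with Aβ42 alone and by 0.25 ± 0.10 with AE1-329 alone. Ift43, the smallest subunit, overlapped between the groups in all comparisons, with differences of -0.08 to 0.11.

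For the dynein-2 motor, Dync2h1, its heavy chain, measured 6.52, 6.60 and 6.44 with both compounds, 6.44, 6.44 and 6.41 with Aβ42 alone, 6.69, 6.77 and 6.83 with AE1-329 alone, and 6.47, 6.51 and 6.63 in vehicle. AE1-329 alone stood above all other arrays, by 0.23 ± 0.06 over vehicle, and Aβ42 alone stood -0.10 ± 0.06 from vehicle. Dync2li1, the light intermediate chain, was more variable, with 6.37, 6.58 and 6.64 with both, 6.29, 6.53 and 6.10 with Aβ42 alone, 6.70, 6.93 and 7.08 with AE1-329 alone, and 6.56, 6.54 and 6.65 in vehicle. Its differences from vehicle were -0.27 ± 0.11 with Aβ42 alone and 0.32 ± 0.11 with AE1-329 alone.

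The transition zone holds the 3 tectonins, membrane-associated proteins of the ciliary gate. Tctn3 and Tctn1 differed in the same directions but by unlike amounts, and Tctn2 did not share them. Tctn3 measured 8.33, 8.48 and 8.49 with both compounds, 7.88, 8.00 and 7.83 with Aβ42 alone, 9.28, 9.28 and 9.40 with AE1-329 alone, and 8.79, 8.84 and 8.97 in vehicle. Its 4 groups did not overlap, and with both compounds Tctn3 stayed below vehicle by -0.43 ± 0.07. Aβ42 alone stood -0.96 ± 0.07 below vehicle, the lowest difference of all members, and AE1-329 alone stood 0.45 ± 0.07 above it. Tctn1 differed by -0.16 ± 0.06 with Aβ42 alone and by 0.27 ± 0.06 with AE1-329 alone, and its dimmer second probe set gave -0.08 and 0.16. Tctn2 overlapped between groups in each comparison, with differences of -0.05 to 0.05. Nphp4, a scaffold of the transition zone, differed by 0.17 ± 0.07 with AE1-329 alone and its Aβ42-alone arrays, at 7.25, 7.09 and 7.16, overlapped those of vehicle, at 7.15, 7.29 and 7.06. Cep290, which links the microtubules of the transition zone to its membrane, was among the dimmest members. It measured 5.47, 5.78 and 5.58 with Aβ42 alone and 6.19, 5.54 and 5.99 in vehicle, which overlapped. Its difference of -0.29 ± 0.14 did not pass and hung on single vehicle arrays. It was -0.48 without vehicle replicate 2, the lowest of them, while replicate 1, the highest, pulled the other way.

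**Figure D2:**
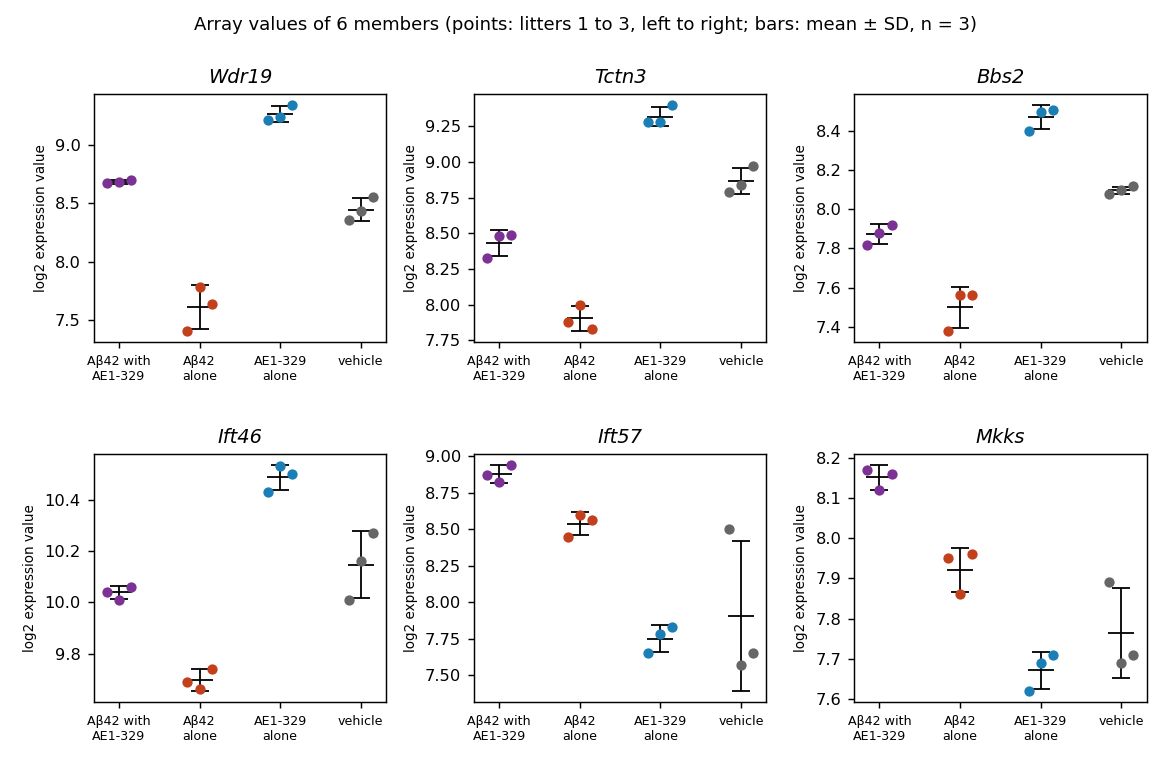
Log2 expression values (y axis) of Wdr19, Tctn3, Bbs2, Ift46, Ift57 and Mkks in the 4 treatments (x axis), with a point per array and bars for the mean ± SD (n = 3). Wdr19, Tctn3, Bbs2 and Ift46 are lowest with Aβ42 alone and highest with AE1-329 alone, whereas Ift57 and Mkks are highest with both compounds, and vehicle replicate 1 of Ift57 stands at 8.50 beside 7.57 and 7.65.

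The design allows the difference made by each compound to be read on 2 separate pairs of groups, although the litters are shared. Aβ42 in the presence of AE1-329, against AE1-329 alone, gave a median member difference of -0.25, against 0.01 over all genes. In that comparison 20 members passed as lower, where 12.2% of all genes did, and Ift57 and Mkks passed as higher, where 9.77% did. Of the members, 17 passed as lower both here and with Aβ42 alone against vehicle, where 9.83% of all genes did, and 30 were below zero in both, against 33.3% of all genes. The arrays did not overlap for 26 members that were lower with both compounds than with AE1-329 alone, against 20.7% of all genes. AE1-329 in the presence of Aβ42, against Aβ42 alone, gave a median of 0.25, against -0.02 over all genes. The 15 members that passed were all higher, where 5.99% of all genes passed as higher and 5.04% as lower, and 10 members passed as higher in both AE1-329 comparisons, where 2.71% of all genes did. Above zero in both were 29 members, against 26.5% of all genes. The arrays with both compounds lay above those with Aβ42 alone without overlap for 26 members, against 15.9% of all genes. Lower in both Aβ42 comparisons and higher in both AE1-329 comparisons were 10 members: Bbs1, Bbs2, Bbs4, Ttc8, Ift46, Ift80, Ift122, Ift140, Wdr19 and Tctn3. Of all genes 1.35% met the same 4 calls. Of these 10, Bbs2, Bbs4, Ttc8, Ift46, Wdr19 and Tctn3 kept all 4 calls whichever 1 array was left out. Over all called members, leaving out 1 array ended the call of 6 of 22 for Aβ42 alone (Bbs1, Bbs5, Ift57, Ift80, Ift88 and Ift122) and of 8 of 22 for Aβ42 in the presence of AE1-329 (Bbs7, Ift52, Ift81, Ift122, Ift140, Wdr35, Dync2h1 and Dync2li1). It ended that of 5 of 13 for AE1-329 alone (Bbs9, Ift122, Ift140, Dync2h1 and Tctn1) and of 5 of 15 for AE1-329 added to Aβ42 (Mkks, Ift22, Ift122, Ttc21b and Wdr35). These counts too follow from values that chose the members and are a description.

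Between both compounds and vehicle 26 of the 34 members were not called, where 15717 of the 19938 genes were not. The members thus stood near the share of all genes. The median difference was -0.03, against -0.01 over all genes, in a range of -0.43 to 0.97. Below zero were 21 members and above zero 13. Lower than vehicle were 5 members, Bbs2 (-0.22 ± 0.06), Bbs9, Bbs10 (-0.41 ± 0.06), Ift172 (-0.26 ± 0.08) and Tctn3, where 11.9% of all genes passed as lower. Higher were 3 members, Mkks (0.39 ± 0.06), Ift22 and Ift57 (0.97 ± 0.18, or 1.26 without vehicle replicate 1), where 9.27% passed as higher. Without 1 array or another, Bbs2 and Ift172 lost this call. By role, 2 of the 7 BBSome subunits and none of the 6 IFT-A subunits or both dynein-2 subunits passed in this comparison. At an unadjusted p under 0.05 in limma lay 13 of the 34 members, where 5893 of the 19938 genes did. They were 3 BBSome subunits, 3 chaperonins, 5 IFT-B, 1 IFT-A, 0 dynein-2 and 1 transition zone members.

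Whether the Aβ42 difference itself changed with AE1-329 was tested as the interaction, in which a positive value means a difference further up in the presence of AE1-329. None of the 34 members passed limma's test (0 of 34 at an adjusted p of 0.05), where 1.95% of all genes did, and 4 had an unadjusted p under 0.05, where 10.4% of all genes did, so the members stood near the share of all genes. The smallest adjusted p was that of Mkks, with 0.32 ± 0.09 and adjusted p = 0.0951 (95% interval 0.134 to 0.513). Bbs7 followed with 0.27 ± 0.08 (adjusted p = 0.154) and Ttc21b with 0.31 ± 0.12 (adjusted p = 0.345). With the litter as a replicate block in limma, the adjusted p was 0.0675 for Mkks, 0.147 for Bbs7 and 0.127 for Ttc21b. When genes below the median level were left out of the test, Mkks passed (adjusted p = 0.0497), and over the other alternatives its adjusted p ranged from 0.0641 to 0.240. For Bbs2 the interval of the interaction was -0.19 to 0.19 and for Ift46 -0.20 to 0.20, so that interactions within those bounds could not be told from zero. For Ift57 it was wider, -0.05 to 1.04.

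**Figure D3:**
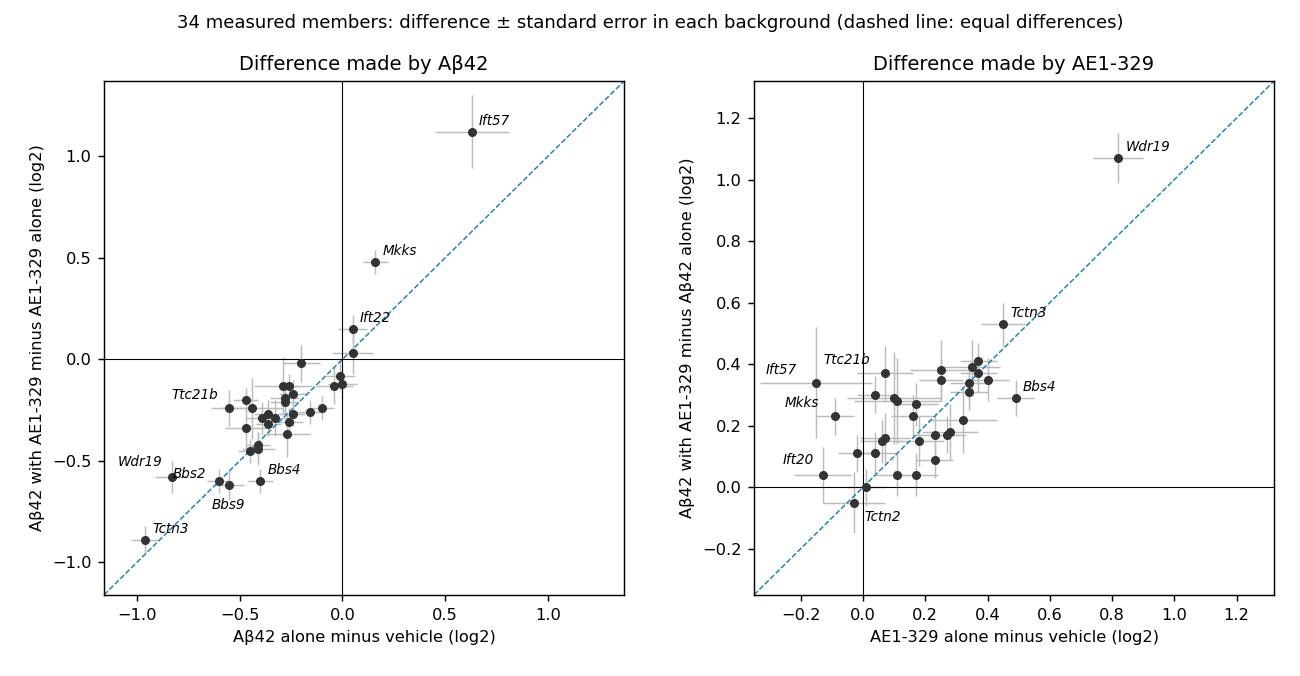
Differences of the 34 measured members (log2, points ± SE). Left, Aβ42 alone minus vehicle (x axis) against Aβ42 with AE1-329 minus AE1-329 alone (y axis). Right, AE1-329 alone minus vehicle (x axis) against Aβ42 with AE1-329 minus Aβ42 alone (y axis). On the left 30 members lie below zero on both axes, with Ift57 and Mkks at the upper right, and on the right 29 lie above zero on both axes, with Wdr19 at 0.82 and 1.07.

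Other genes of the primary cilium, were taken from 6 lists of the same machinery and its surroundings. Of their 75 measured genes, 27 fell and 3 rose with Aβ42 alone, with a median of -0.13, and 18 rose when AE1-329 was added to Aβ42, with a median of 0.12 and no fall (27 had an unadjusted p under 0.05 in either direction). With AE1-329 alone 8 rose and 1 fell. Of all genes, 14.8% fell and 10.7% rose with Aβ42 alone. When AE1-329 was added to Aβ42 5.99% rose and 5.04% fell, and with AE1-329 alone 4.71% rose and 5.45% fell. No test of a list was made. The lists too were chosen with earlier results of these data known, and their genes were named by the smallest p in the same comparisons. The p-values printed for them are thus a description and no separate evidence for the pattern of the members. Among IFT-B subunits outside the members, Cluap1 (IFT38) fell by 0.33 ± 0.08 with Aβ42 alone (adjusted p = 0.00778, limma), and Ttc26 (IFT56) rose by 0.50 ± 0.09 with AE1-329 alone (adjusted p = 0.0021). Ttc30a1, a homologue of IFT70, fell with both single treatments, by 0.56 ± 0.06 with Aβ42 alone and by 0.27 ± 0.06 with AE1-329 alone, and its interaction passed (0.46 ± 0.09, adjusted p = 0.0209). That interaction lost its call in 6 of the 12 fits without 1 array, at values of 0.43 to 0.46, and the fall with AE1-329 alone lost its call without AE1-329 replicate 2 or 3 (-0.25 and -0.24). Ttc30a1 was dim, with group means of 5.48 to 6.04, below the lower quartile gene level of 6.13.

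The kinesin-2 motor subunits went in different directions with Aβ42 alone. Of 12 kinesin-2 and other dynein-2 genes 3 fell and 1 rose, where 14.8% and 10.7% of all genes did, and the median was -0.08. Kif3b, another motor subunit, averaged 9.21 with Aβ42 alone and 9.14 in vehicle. Kif3a, a motor subunit, fell by 0.57 ± 0.08 (adjusted p = 0.000159, limma) and Kifap3, the adaptor, fell by 0.38 ± 0.05 (adjusted p = 4.54e-05), whereas Kif3c, an alternative partner of KIF3A, rose by 0.91 ± 0.08 (adjusted p = 1.03e-06). Of 8 BBSome-associated genes 3 fell and 2 rose. Lztfl1, which restrains BBSome traffic into cilia, rose by 0.84 ± 0.14 (adjusted p = 0.000451), and Sdccag8, a centrosomal ciliopathy gene, fell by 0.67 ± 0.07 (adjusted p = 8.79e-06).

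Basal body and transition zone genes form the longest of these lists. Of 17 basal body and ciliogenesis genes 9 fell with Aβ42 alone, and 8 rose when AE1-329 was added to Aβ42. Of all genes 14.8% fell and 5.99% rose in these comparisons. 2700049A03Rik, the gene of the centriolar protein talpid3, fell by 0.83 ± 0.06 (adjusted p = 2.41e-07, limma) with Aβ42 alone. Ccp110, whose product caps the mother centriole until a cilium forms, fell by 0.40 ± 0.07 with Aβ42 alone and rose by 0.60 ± 0.07 when AE1-329 was added (adjusted p = 5.58e-05). Of 17 other transition zone and inversin compartment genes 7 fell with Aβ42 alone, among them Cc2d2a, a partner of the tectonins, by 0.72 ± 0.07 (adjusted p = 4.37e-06). Rpgrip1l, a transition zone scaffold, rose by 0.48 ± 0.06 with AE1-329 alone and by 0.58 ± 0.06 with AE1-329 added to Aβ42 (adjusted p = 2.22e-05).

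Among 15 genes of ciliary membrane traffic and hedgehog signalling, 3 (20%) fell with Aβ42 alone, near the 14.8% of all genes. Ptch1, the hedgehog receptor and itself a hedgehog target, averaged 8.86 ± 0.08 with both compounds, 7.71 ± 0.05 with Aβ42 alone, 8.71 ± 0.05 with AE1-329 alone and 8.48 ± 0.08 in vehicle (SD, n = 3 each). Ptch1 thus fell with Aβ42 alone (-0.77 ± 0.06) but differed by 0.15 ± 0.06 with Aβ42 in the presence of AE1-329, which did not pass, and its interaction of 0.92 ± 0.08 passed limma's test (adjusted p = 0.00012). Smo, the signal transducer that PTCH1 holds back, fell with Aβ42 alike without and with AE1-329, by 0.50 ± 0.10 and 0.51 ± 0.10.

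Of 9 RFX and FOXJ1 factor genes 1 (11.1%) fell with Aβ42 alone, where 14.8% of all genes did, and the median was -0.02. With AE1-329 alone 2 (22.2%) rose, with a median of 0.03, where 4.71% of all genes did. When AE1-329 was added to Aβ42 2 rose, with a median of -0.01, where 5.99% of all genes did. Most of these factors thus did not pass. Rfx3, a regulator of ciliary genes, passed in 4 comparisons. With Aβ42 it changed by -0.27 ± 0.05 alone and by -0.35 ± 0.05 in the presence of AE1-329 (adjusted p = 0.00186 and 0.000297, limma), and with AE1-329 by 0.32 ± 0.05 alone and by 0.25 ± 0.05 with Aβ42 (adjusted p = 0.00147 and 0.00869). Rfx1 rose by 0.26 ± 0.05 when AE1-329 was added to Aβ42 (adjusted p = 0.00607). The 20 genes of motile cilia were dim, with array medians of 6.02 to 6.31 and 1 gene above the median gene level, against 24 of the 34 members above it. None of the 20 passed in any of the 6 comparisons in limma, and at an unadjusted p under 0.05 lay 2 with AE1-329 alone and 0 in the other comparisons. The 6 other IFT-B subunits were nearly as dim, with array medians of 6.27 to 6.52, and 2 of them passed as lower with Aβ42 alone. Whether their level kept the motile cilium genes from passing was not tested, and no contrast with the members is drawn.

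Genes of cilium disassembly and of proliferation are given beside the members because cilia are taken down before division. Of 7 disassembly genes, Nde1 rose by 0.34 ± 0.07 with Aβ42 alone, and Kif24 (-0.41 ± 0.08) and Plk1 (-0.57 ± 0.15) fell, the last without a call when Aβ42-alone replicate 1 was left out (-0.42). Of 9 proliferation genes 8 fell with Aβ42 alone, with a median of -0.51, and 3 fell with AE1-329 alone, with a median of -0.24, while the members had medians of -0.29 and 0.17. Of all genes 14.8% and 5.45% fell in these comparisons. The summed array values of the proliferation genes were 80.5 to 83.1 with Aβ42 alone, 83.4 to 84.9 with AE1-329 alone and 86.7 to 87.8 in vehicle. With both compounds the sums were 82.2 to 84.6, and 3 of the 9 were lower than vehicle, where 11.9% of all genes were. The median was then -0.34, against -0.03 for the members. The interaction passed for 3 of the 9, where 1.95% of all genes and 0 of 34 members passed. The part of proliferation in the differences of the members was not tested.

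**Figure D4:**
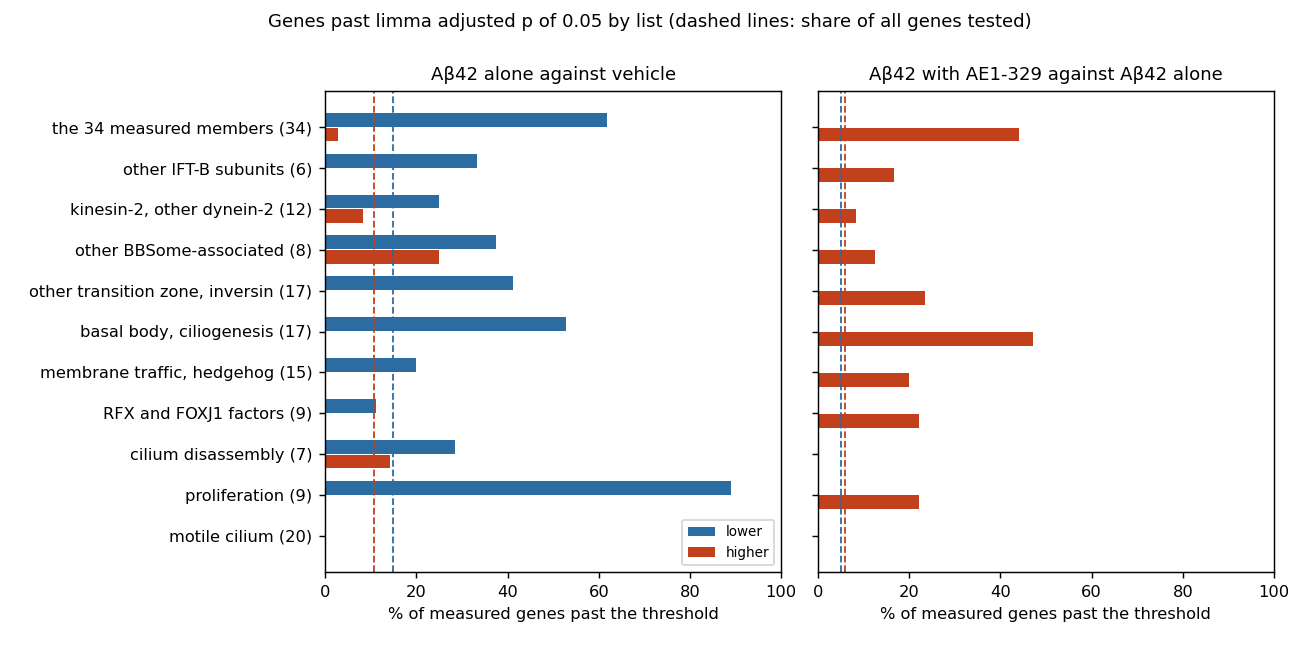
Percent of the measured genes of each list (number in brackets) that passed a limma adjusted p of 0.05 as lower (blue) or higher (red) with Aβ42 alone against vehicle (left) and with Aβ42 and AE1-329 against Aβ42 alone (right). Dashed lines mark the shares of all genes, 14.8% lower and 10.7% higher on the left, 5.04% lower and 5.99% higher on the right. Proliferation genes have the longest blue bar on the left at 88.9%, followed by the members, chosen on these values, at 61.8% and basal body genes at 52.9%, and the dim motile cilium genes have no bar.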

How the data were processed

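Transcripts of cultured mouse microglia were measured on 12 Affymetrix Mouse Gene 1.0 ST arrays, 4 groups of 3. The deposited files give each probe set a log2 value on every array, and the submitters' processing notes list RMA and Partek 6.5 but not what each did. That the values are log2 follows from their range (2.79 to 13.95). No filter or build is named, and changes are relative to the bulk of genes. Groups and replicate numbers come from the labels, and the design text ties replicates to litters.

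Of 35556 probe sets 21789 carried 1 symbol, 1621 several and 12146 none. Symbols of 21698 were updated by gene ID from RefSeq, and the brightest probe set per gene gave 19938 genes, with no filter on dim ones. Of the members, 10 lay below the median gene level. Group means of all 12 arrays were fitted with limma 3.58.1 in R 4.3.3 (lmFit, eBayes, 8 residual and 4.54 prior degrees of freedom), with two-sided p adjusted by Benjamini-Hochberg over all genes at 0.05. The litter was not a term of this fit, although each litter gave an array to every group. The fit was tested on simulated data. Changes are tested group minus its control ± SE, and precision is limited by the small number of arrays. Genes outside the members were named by rule: up to 3 per list with the smallest p for Aβ42 alone and up to 3 for AE1-329 alone among those that passed, else the smallest p, and each that passed the interaction. The text names a part of them. Members and lists were chosen with earlier results of these data known.

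As a check of the litters, deviations from group means of the 18 same-numbered array pairs correlated at a mean r of 0.326 over genes (0.0044 to 0.538, 17 above 0.1), and 12 of 12 arrays correlated best with their own number. No 2 arrays were identical. Alternatives were the litter as a replicate block, only genes over the median level, averaged probe sets, all probe sets, quantile normalization again, trend with robust prior, only the groups compared, array weights and leaving out each array. Promoter motifs were counted in RefSeq promoters.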

Additional observations from a re-analysis of the deposited data

Results flagged for a closer look

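Of the genes in the other cilium lists, 2 had an Aβ42 difference that changed with AE1-329 by limma's test of the interaction over all genes. Ptch1 had an interaction of 0.92 (adjusted p = 0.00012): it differed by 0.15 ± 0.06 with Aβ42 in the presence of AE1-329 and by -0.77 ± 0.06 without it. Ttc30a1 had an interaction of 0.46 (adjusted p = 0.0209): it differed by -0.10 ± 0.06 with Aβ42 in the presence of AE1-329 and by -0.56 ± 0.06 without it, and the call of its interaction was lost in 6 of the 12 fits without 1 array. Group means of Ttc30a1, 5.48 to 6.04, lay below the lower quartile gene level of 6.13, and its signal over background is unknown.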

How the results depend on the processing

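No called member difference changed sign under any alternative run, and 3385 of 3407 recomputed member differences stayed within 1 SD. With the litter as a replicate block the numbers of members past the threshold were 23 (Aβ42 alone), 24 (Aβ42 in the presence of AE1-329), 14 (AE1-329 alone), 16 (AE1-329 added to Aβ42), 11 (both against vehicle) and 0 (interaction), against 22, 22, 13, 15, 8 and 0 without it, so the block moved no count of members by over 1.5 times. Among genes above the median level 1 member passed the interaction. With only the groups of a comparison in the fit, 7 members and 4 genes of the 6 other lists passed for AE1-329 alone, and 14 list genes for both against vehicle (24 with all groups). Over all probe sets 1 list gene passed the interaction, and allowing 1 mismatch raised the X-box count to 5 members. The causes were not tested.

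Leaving out 1 array gave 19 to 24 members for Aβ42 alone, 15 to 24 for Aβ42 in the presence of AE1-329, 8 to 14 for AE1-329 alone (8 without AE1-329 replicate 2), 10 to 19 for AE1-329 added to Aβ42, 6 to 10 for both against vehicle and 0 for the interaction. The list counts in that order were 24 to 33, 21 to 34, 5 to 13 (5 without AE1-329 replicate 3), 13 to 21, 16 to 25 and 1 to 3, the interaction falling to 1 without any 1 of replicates 2 and 3 of the combined treatment, 1 and 2 of Aβ42 alone and 2 and 3 of AE1-329 alone. Members that then passed for both against vehicle were Bbs7 (-0.19) and Bbs12 (-0.22) without vehicle replicate 2, Ift20 (-0.25) without vehicle replicate 3, Ift46 (-0.18) without vehicle replicate 1, Ift81 (-0.22) without Aβ42-alone replicate 1, and Wdr19 without Aβ42-alone replicate 1 or 2 or vehicle replicate 3 (0.24 to 0.29). Signal over background is unknown, which limits the dim members Bbs12 and Cep290.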
